A study of Mus musculus with 3 samples.

Results

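The cells described here are laryngeal fibroblasts that carry UMIs (unique molecular identifiers, each counting one captured transcript) of *Hhip*, *Wnt16* and *Col23a1*. They were chosen by measured counts in 3 single-cell libraries of tdTomato-sorted cells. A barcode was kept when it held UMIs of at least 4 of the 7 fibroblast genes *Col1a1*, *Col1a2*, *Col3a1*, *Dcn*, *Lum*, *Pdgfra* and *Dpt*, no UMI of the epithelial gene *Epcam*, and at least 2 UMIs of the 3 gate genes together. This rule selected 2796 cells, with 1288, 307 and 1201 in libraries 1, 2 and 3, of 41033 cells in all and 4117 fibroblasts. The cells they were compared with are the 946 fibroblasts of the same libraries with 0 gate UMIs, namely 506, 68 and 372. The 375 fibroblasts with exactly 1 gate UMI entered neither group.

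All 3 libraries came from the same condition, Lrig1CreERT2/+; ROSA-LSL-tdTomato/+ mice collected 24 h after recombination by tamoxifen, in which Cre under the control of *Lrig1* switches on the tdTomato reporter. Each library pooled cells of 10 larynges from 5 males and 5 females, so no value belongs to a single animal. The sexes were not separated. The ages of the mice were not given in the sources used here, and no wild-type or reporter-only library was analysed here. Neither the tdTomato nor the Cre transcript is among the 33696 features, and the reporter was therefore not checked. Median depth was 9740, 13876 and 12208 UMIs per kept cell, and libraries shared 46 to 165 barcodes, at most 0.913% of the smaller one.

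Fibroblasts build and renew the lamina propria, the layered connective tissue beneath the laryngeal epithelium whose collagens, elastic fibres and proteoglycans let the vocal folds vibrate. HHIP is a membrane protein that binds and sequesters hedgehog ligands and is itself a hedgehog target gene in many tissues. WNT16 is a secreted Wnt ligand known for its role in cortical bone, and COL23A1 is a transmembrane collagen. Of the other genes used to mark these cells, MGP inhibits calcification of the matrix, TBX4 is a T-box factor of lung and limb mesenchyme, and PRDM6 is a transcriptional regulator of smooth muscle.

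The windows around the transcription starts of the gate genes are shown because these 3 genes chose the cells. They are RefSeq windows (GRCm38.p6) written 5′ to 3′, with each CG dinucleotide in capitals. Each matched GRCm39, the build of the deposited counts, exactly once on its chromosome, at chr8:80784588-80784887 (minus strand) for *Hhip*, chr6:22287976-22288275 (plus strand) for *Wnt16* and chr11:51180497-51180796 (plus strand) for *Col23a1*.
*Hhip* promoter: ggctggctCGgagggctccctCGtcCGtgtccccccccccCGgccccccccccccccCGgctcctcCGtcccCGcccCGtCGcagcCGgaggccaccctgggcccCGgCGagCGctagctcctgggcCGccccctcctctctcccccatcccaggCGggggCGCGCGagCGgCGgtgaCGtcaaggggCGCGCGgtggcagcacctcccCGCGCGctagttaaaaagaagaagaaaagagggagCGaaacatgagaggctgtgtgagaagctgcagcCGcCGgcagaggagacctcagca
*Wnt16* promoter: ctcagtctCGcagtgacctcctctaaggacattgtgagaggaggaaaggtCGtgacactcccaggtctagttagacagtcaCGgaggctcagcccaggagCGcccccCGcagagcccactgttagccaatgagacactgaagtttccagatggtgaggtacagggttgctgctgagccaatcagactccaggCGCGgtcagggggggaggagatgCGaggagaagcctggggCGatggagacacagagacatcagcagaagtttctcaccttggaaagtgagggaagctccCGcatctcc
*Col23a1* promoter: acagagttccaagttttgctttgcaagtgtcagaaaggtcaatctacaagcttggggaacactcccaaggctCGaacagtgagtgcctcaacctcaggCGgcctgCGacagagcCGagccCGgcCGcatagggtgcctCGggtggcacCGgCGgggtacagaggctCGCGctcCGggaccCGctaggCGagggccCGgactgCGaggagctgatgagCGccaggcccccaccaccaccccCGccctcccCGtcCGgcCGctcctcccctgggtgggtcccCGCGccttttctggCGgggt
The *Hhip* window held 30 CG dinucleotides, the *Col23a1* window 24 and the *Wnt16* window 10, against a median of 7 over 32851 windows of 300 bases. None of the 3 held GACCACCCA (the GLI motif), AGGTGTGA (T-box) or CTTTGAT (TCF/LEF) on either strand, letters found in 0.253%, 1.28% and 3.73% of all windows. The genes themselves lie on chromosomes 8 (80692480 to 80784658, *Hhip*), 6 (22288221 to 22298521, *Wnt16*) and 11 (51180566 to 51474745, *Col23a1*) of GRCm39, and each window spans the annotated 5′ end of its gene.

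The gate-positive cells were most of the fibroblasts in every library. They made up 64.8% of fibroblasts in library 1 (95% Wilson interval 62.7 to 66.9), 74.5% in library 2 (70.1 to 78.5) and 69.9% in library 3 (67.7 to 72.1), a mean of 69.8% ± 4.87 (SD, n = 3). These intervals cover counting error only. The gate had no gap at its threshold, since 21 to 115 cells per library held exactly 2 gate UMIs and 37 to 194 held exactly 1. Yet 73.1% to 75.7% of the gate-positive cells held 6 or more, with medians of 13, 12 and 14 and a highest count of 348. Among fibroblasts with at least 5000 UMIs, each thinned to 5000, the mean share was 61.5%.

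**Figure D1:**
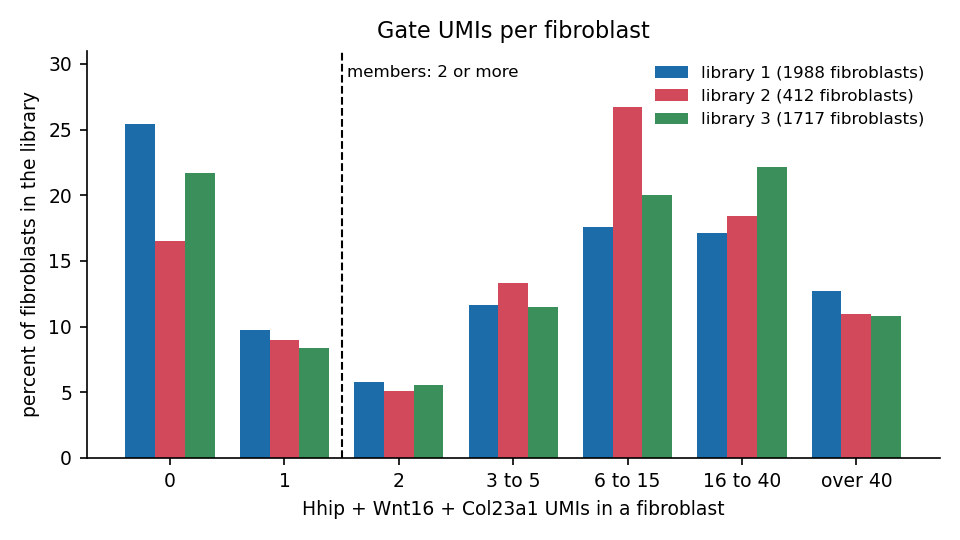
Share of fibroblasts (y axis, percent of the fibroblasts of a library) by the summed UMIs of *Hhip*, *Wnt16* and *Col23a1* in a cell (x axis), with one bar per library; cells right of the dashed line are gate-positive. In every library the class with 2 UMIs is the smallest, and classes of 6 UMIs or more hold most gate-positive cells.

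The gate rested mainly on *Col23a1* and *Hhip*. A *Col23a1* UMI was present in 88.4%, 88.6% and 93.2% of gate-positive cells, a *Hhip* UMI in 80.0%, 76.9% and 75.7%, and a *Wnt16* UMI in 33.4%, 29.6% and 27.6%. *Wnt16* was found mostly within the *Hhip* cells: 95.3%, 93.4% and 94.3% of cells with *Wnt16* also held *Hhip*, against 72.3%, 69.9% and 68.6% of those without *Wnt16*. Thinned to 5000 UMIs per cell, with 205, 17 and 199 shallower cells left out, the corresponding shares were 93.4%, 81.4% and 92.1% against 62.4%, 57.7% and 59.8%. Cells with *Col23a1* alone numbered 238, 65 and 273, and cells with *Wnt16* alone 9, 2 and 4. The gate itself shapes these shares and counts. A gate-positive cell without *Wnt16* must hold *Hhip* or *Col23a1*, and a cell with a single *Wnt16* UMI and neither of these is left out.

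Gate-positive cells held 79.6%, 84.8% and 71.9% of all *Hhip* UMIs among the kept cells of their library. The corresponding shares were 82.2%, 88.9% and 70.9% for *Wnt16* and 74.7%, 69.9% and 68.1% for *Col23a1*. Counting the removed mixed barcodes too, 72.8%, 74.1% and 61.1% of the UMIs of the 3 gate genes lay in gate-positive cells. The next largest share, 16.9%, 18.6% and 22%, lay in the 7543, 5330 and 16895 kept barcodes with markers of no class or of more than 1, of which 8.75%, 5.95% and 5.32% held at least 2 gate UMIs. Macrophages served as the measure of free RNA, and 2.75% of 109, 0 of 31 and 3.23% of 31 of them held a *Hhip* UMI, at median depths of 10038, 4680 and 3544 UMIs against 10985, 11158 and 9198 in the gate-positive cells. None of these macrophages held 2 gate UMIs, which in the largest set allows a share of up to 2.75%. *Hhip* was also found in 13.1%, 9.19% and 13.3% of muscle satellite cells, the stem cells of skeletal muscle, at 69.4, 31.5 and 79.9 CPM (the UMIs of a gene in a sum, scaled to a common total for all sums). Their *Wnt16* level was at most 0.490 CPM and their *Col23a1* level at most 4.56 CPM. Perineurial barcodes of library 1, 70 in number, had 617 CPM of *Hhip*, 174 of *Wnt16* and 327 of *Col23a1*, close to the gate-positive cells for *Wnt16*, with UMIs of these genes in 10.0%, 7.14% and 14.3% of them. In libraries 2 and 3 their *Hhip* level was 0 and 73.4 CPM. *Hhip* was also at 151 CPM in 67 pericyte and smooth muscle barcodes of library 1, with a UMI in 7.46% of them, while all 3 gate genes were at 0 in the 36 such barcodes of library 3. It was at 47.5, 12.4 and 79.5 CPM in epithelial barcodes, in 2.76%, 0.975% and 4.43% of them. Barcodes with markers of endothelial cells carried 56.8 to 248 CPM of *Col23a1*, in 381, 20 and 27 cells.

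The label was checked against markers of other cell types, which also bear on the comparison that follows. All 10 epithelial markers were detected in both groups, with summed levels of 102 to 398 CPM in gate-positive cells and 131 to 429 CPM in comparison cells. At least 3 epithelial markers were present in 12.6%, 4.56% and 29.4% of gate-positive cells and in 5.88% to 24.2% of comparison cells. Macrophage markers summed to 0.537 to 16.2 CPM and to 0 to 19.5 CPM. Satellite cell markers (8 genes, *Pax7* and *Myf5* among them) differed between the groups, at 84.2 to 116 CPM against 207 to 582 CPM. At least 3 satellite markers were present in 1.33% to 1.95% of gate-positive and 4.35% to 11.8% of comparison cells. Schwann cell markers summed to 111, 80.2 and 39.7 CPM in gate-positive and 56.4, 63.5 and 67 CPM in comparison cells, higher in the former in libraries 1 and 2. Pericyte and smooth muscle markers summed to 56.9, 94.5 and 120 CPM against 134, 72.9 and 173 CPM, and endothelial markers to 30 to 43.9 CPM against 21.6 to 34.3 CPM. At least 3 markers of any of these 3 classes were present in at most 1.3% of gate-positive and 2.94% of comparison cells. Perineurial markers summed to 101 to 106 CPM and to 55.4 to 180 CPM, with at least 3 in 1.95% to 4.43% of gate-positive and 1.47% to 4.35% of comparison cells. Chondrocyte markers summed to 12.5 to 14.5 CPM and to 12.2 to 109 CPM, with *Matn1* at 0 in all 6 sums. The part of these cells in the results was not tested, other than by leaving out barcodes with a UMI of *Pecam1*, *Ptprc*, *Pax7*, *Krt5* or *Krt8*.

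Of the markers given for these cells, *Tbx4* differed most between the groups. Its summed level was 251, 252 and 252 CPM in gate-positive cells of the 3 libraries and 20.9, 24.3 and 31.2 CPM in comparison cells. *Prdm6* stood at 378, 391 and 434 CPM against 99.0, 95.9 and 132 CPM. *Mgp* stood at 8752, 8943 and 13944 CPM against 7464, 5937 and 7881 CPM. The groups did not overlap for *Tbx4*, *Prdm6* or *Mgp*, but these genes helped to name the cells, and no test is given. At the threshold *Tbx4* was at 101, 104 and 91.8 CPM in cells with 2 gate UMIs and at 55.0, 105 and 32.5 CPM in cells with 1, so library 2 showed no step there.

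Levels also differed between cells with few and many gate UMIs. *Notum* went from 11, 13.5 and 12.8 CPM in cells with 0 gate UMIs to 311, 296 and 335 CPM in cells with over 40. The classes between were not in strict order, since in library 2, which has few cells per class, *Notum* was at 71.4 CPM with 1 gate UMI and 4.54 CPM with 2. *Cilp* went from 162, 176 and 118 CPM to 0 in all 3 libraries, by way of 4.76, 22.7 and 51.2 CPM at 1, 2 and 3 to 5 UMIs in library 2. *Dcn*, one of the genes of the fibroblast rule, went from 20897, 20553 and 14166 CPM to 2311, 2368 and 1124 CPM. The gate-positive cells with the most gate UMIs were thus poorest in *Dcn*, and were also the deepest, with median depths of 12980, 13583 and 12969 UMIs. These values describe the gate and are not tested.

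**Figure D2:**
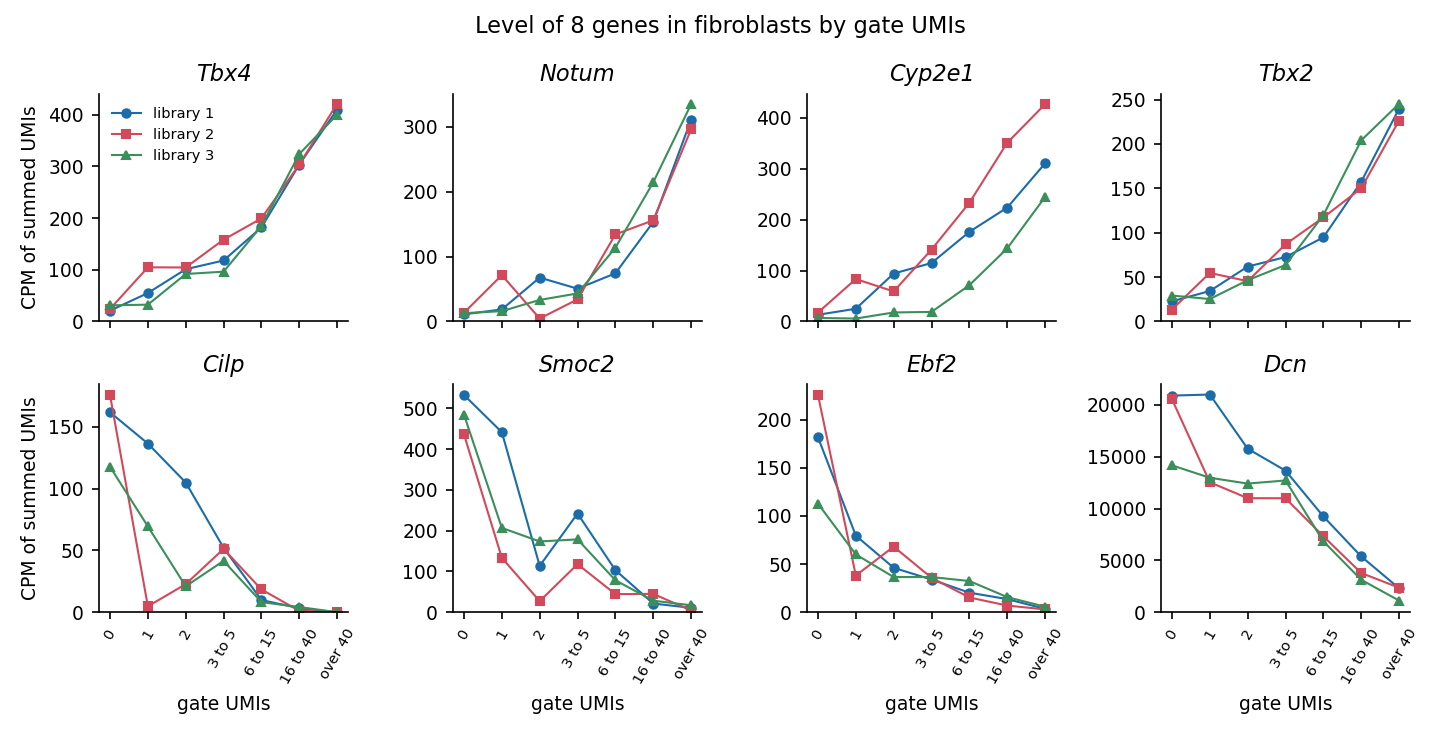
Level of 8 genes (y axes, CPM of summed UMIs, each from 0) in fibroblasts grouped by gate UMIs (x axes), with one line per library. *Tbx4*, *Notum*, *Cyp2e1* and *Tbx2* are highest in cells with over 40 gate UMIs, and *Cilp*, *Smoc2*, *Ebf2* and *Dcn* are lowest there, in all 3 libraries.

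To ask what else distinguishes gate-positive fibroblasts, the UMIs of each group were added up within each library, and the sums were tested with edgeR's quasi-likelihood test with the library as a block. The genes of the rule were left out. Of 13080 genes, 768 (5.87%) were higher and 696 (5.32%) lower in gate-positive cells at a Benjamini-Hochberg adjusted p below 0.05. Without the block the counts were 350 and 283. A difference between sums can reflect more cells with a transcript or more transcripts per cell, which were not separated. In each library the gate-positive cells were the deeper group, by 1.14, 1.04 and 1.24 times in median UMIs. In sums matched for depth 634 genes were higher and 567 lower, and a call there was a condition for the 24 genes named next.

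The largest rises were in genes of diverse function. *Pla2g5*, a secreted phospholipase, was at 51.5, 25.5 and 57.2 CPM in gate-positive cells and at 1.38, 2.70 and 1.97 CPM in comparison cells (log2 difference 4.86 ± 0.247 SE, edgeR adjusted p = 4.23e-05). *Nrcam*, a neuronal cell adhesion molecule, was at 55.3, 40.0 and 46.5 CPM against 2.56, 1.35 and 1.31 CPM (4.63 ± 0.209, adjusted p = 3.42e-05). Neither gene's groups overlapped, but the comparison values rest on few UMIs. In the comparison sums of libraries 1, 2 and 3, 3 UMIs make 0.591, 4.05 and 0.986 CPM. *Cyp2e1*, a cytochrome P450 that oxidises small organic molecules, was at 204, 270 and 118 CPM against 13.2, 17.6 and 6.90 CPM (3.95 ± 0.112, adjusted p = 1.18e-05). *Igfbp2*, a binding protein of insulin-like growth factors, was at 168, 165 and 124 CPM against 9.07, 0 and 12.8 CPM (3.97 ± 0.296, adjusted p = 1.55e-04). Both were high in every gate-positive sum, and *Cyp2e1* was lowest in library 3 in both groups.

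The remaining largest rises were those of *Ces1f* (a carboxylesterase with close paralogs, whose counts may be split), *Irf8* (an interferon-regulatory factor best known from myeloid cells), *Art4*, *Kcnip1* (a potassium channel-interacting protein), *Notum*, and the less characterised *A930006I01Rik*, *Gm15958* and *D430041D05Rik*. Their log2 differences ran from 3.49 (*Art4*) to 5.02 (*A930006I01Rik*). The groups did not overlap for any, but the genes were chosen as the largest differences in these same sums, which favours this. *Irf8* stood at 53.7, 48.6 and 48.6 CPM against 4.34, 1.35 and 4.60 CPM. Macrophage markers summed to no more than 16.2 CPM in the gate-positive and 19.5 CPM in the comparison sums. The source of the *Irf8* counts was not tested.

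The largest falls included genes known from adventitial and tendon-like fibroblasts. *Dpp4*, a cell surface peptidase of adventitial fibroblasts, was at 1.75, 0.537 and 0.343 CPM in gate-positive cells and at 64.5, 32.4 and 4.93 CPM in comparison cells (log2 difference -5.12 ± 0.298 SE, edgeR adjusted p = 5.96e-05). *Comp*, a matrix protein of cartilage and tendon, was at 3.63, 1.61 and 3.08 CPM against 41.4, 60.8 and 48.3 CPM (-3.96 ± 0.247, adjusted p = 6.74e-05). Both were low in every gate-positive sum, and *Dpp4* was far lower in the comparison cells of library 3 than in those of the other libraries. *Cxcl13*, a B-cell chemokine, was at 13.3, 1.34 and 6.34 CPM against 230, 355 and 17.4 CPM (-4.09 ± 0.679, adjusted p = 0.00727). Its comparison values spanned a wide range but stayed above every gate-positive value.

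The other largest falls were those of *Tmeff2*, *Efhd1*, *Meox1* (a homeobox factor of somites), *Ifi207* and *Ifi204* (interferon-inducible genes of a family of close paralogs), *Cadm3*, *Erfe*, *Slfn5* and *Nppc* (C-type natriuretic peptide). Their log2 differences lay between -4.68 (*Tmeff2*) and -3.37 (*Slfn5* and *Nppc*). The groups did not overlap for any of them, which their choice from the same sums likewise favours.

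**Figure D3:**
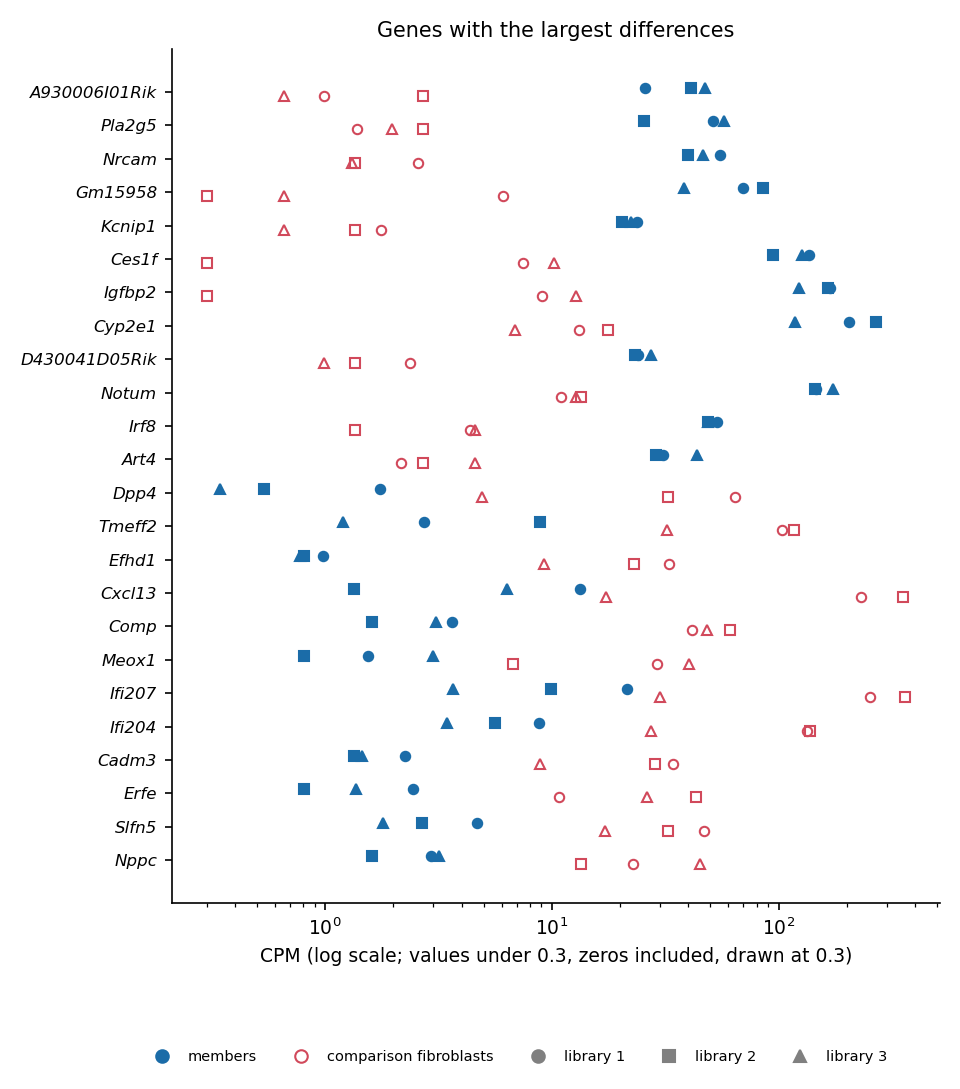
Level (x axis, CPM on a log scale) of the 12 genes with the largest rises and the 12 with the largest falls (y axis) in the sums of gate-positive cells (members, filled) and comparison fibroblasts (open), with one symbol per library. No filled and open symbols of a gene overlap in value, and the 0 values of *Gm15958*, *Ces1f* and *Igfbp2* in library 2 are drawn at 0.3.

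Hedgehog signalling was examined first because *Hhip* chose the cells. In this pathway secreted ligands bind PTCH1, which releases SMO and activates the GLI transcription factors, with GAS1, CDON and BOC as co-receptors. *Gas1* was the one of 19 tested genes that passed, a share of 5.26% lower beside 5.32% over all genes. It was lower, at 291, 302 and 302 CPM against 824, 840 and 735 CPM (log2 difference -1.45 ± 0.079 SE, edgeR adjusted p = 5.35e-05). The gate-positive sums were nearly equal and less than every comparison sum. The list's median was -0.16, beside -0.01 over all genes tested.

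The target genes of the pathway gave no call. *Gli1* was at 3.63, 5.10 and 3.08 CPM against 5.52, 5.40 and 9.86 CPM (adjusted p = 0.155), and *Ptch1* at 38.1, 54.8 and 29 CPM against 39.4, 40.5 and 43.4 CPM (adjusted p = 0.642). *Gli1* was lower in all 3 libraries, while *Ptch1* overlapped between the groups. *Smo*, *Gli2*, *Gli3*, *Sufu*, *Boc*, *Cdon*, *Disp1*, *Hhat*, *Scube1*, *Scube2*, *Scube3*, *Kif7*, *Gpr161*, *Evc*, *Evc2* and *Hhipl1* had adjusted p-values of 0.11 to 0.962. With all 3 libraries and the filter on low counts, no member was called higher by edgeR or by DESeq2. There, 0 of 19 were higher at an unadjusted p below 0.05 in edgeR (1 in DESeq2), while 4 of 19 were lower at that threshold in edgeR. Without library 3, and without the filter on low counts, *Scube1* and *Scube2* were called higher, so this count of 0 depends on that library and on the filter. Over all genes, 11% were higher and 11.3% lower at that unadjusted threshold and 4.27% were called higher by DESeq2.

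Genes of the Wnt pathway were called in both directions. Wnt ligands act through Frizzled receptors and LRP co-receptors, and AXIN2, NKD1, NKD2, NOTUM, LGR5 and TCF7 are known as targets that rise when the beta-catenin branch is active. Of 50 tested members 21 were higher (42%) and 6 lower (12%), beside 5.87% and 5.32% of all genes tested, and the list's median log2 difference was 0.32. The count of higher members was 14 without the block, 17 without library 2 and 17 without barcodes bearing another class's marker.

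*Notum*, a secreted enzyme that removes the lipid from Wnt proteins and so inactivates them, was at 147, 144 and 174 CPM against 11, 13.5 and 12.8 CPM (log2 difference 3.68 ± 0.117 SE, edgeR adjusted p = 1.43e-05). *Tnfrsf19*, a Wnt-responsive receptor of the TNF family, was at 148, 122 and 118 CPM against 9.86, 9.45 and 20 CPM (3.27 ± 0.232, adjusted p = 1.23e-04). *Rspo4*, a secreted amplifier of Wnt signals, was at 9.57, 18.5 and 12 CPM against 0.394, 1.35 and 1.64 CPM (3.57 ± 0.386, adjusted p = 0.001). None of these genes overlapped between the groups, but *Rspo4* was under 3 UMIs in the comparison sums of libraries 1 and 2 (0.591 and 4.05 CPM). *Tcf7* was at 22.1, 23.1 and 25.4 CPM against 4.34, 6.75 and 4.27 CPM (2.32 ± 0.209, adjusted p = 3.85e-04). *Axin2* was at 92.9, 81.3 and 71.9 CPM against 31.2, 23.0 and 26.6 CPM, and the Wnt inhibitor *Wif1* at 255, 297 and 446 CPM against 99.6, 64.8 and 100 CPM. *Lgr5*, *Fzd10*, *Nkd1*, *Nkd2*, *Ror2*, *Dkk3*, *Wnt5b*, *Fzd1*, *Fzd2*, *Fzd3*, *Rspo1*, *Rspo3*, *Apcdd1*, *Sfrp2* and *Wls* were also higher, whereas *Fzd4*, *Fzd8*, *Fzd9*, *Sfrp1*, *Sfrp4* and *Lrp6* were lower.

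Ligands and antagonists of the BMP family were called in both directions, 10.2% higher and 12.2% lower beside 5.87% and 5.32% of all genes. Of 49 tested genes of the BMP and TGF-beta list, 5 were higher (*Sostdc1*, *Bmp7*, *Bmp2*, *Gdf10* and *Twsg1*) and 6 lower (*Chrdl1*, *Bmper*, *Bmp5*, *Fst*, *Bmpr1b* and *Id2*), and 8 were higher without library 3. *Bmp7*, a bone morphogenetic protein, was at 64.4, 44.0 and 38.0 CPM against 16.4, 9.45 and 6.24 CPM (log2 difference 2.15 ± 0.168 SE, edgeR adjusted p = 1.82e-04). *Bmper*, an extracellular modulator of BMPs, was at 26.8, 12.1 and 16.7 CPM against 66.8, 63.5 and 95.9 CPM (-2.0 ± 0.231, adjusted p = 0.00133). Neither overlapped between the groups.

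Of 39 genes of growth factor signalling 7 were higher (17.9%) and 6 lower (15.4%), beside 5.87% and 5.32% of all genes tested. *Met*, the receptor of hepatocyte growth factor, was at 13.0, 7.78 and 9.16 CPM against 37.9, 52.7 and 35.2 CPM (log2 difference -1.94 ± 0.211 SE, edgeR adjusted p = 0.00101). *Fgfr4* was lower at -2.25, and turned to 0.08, without a call, when 5 of the 7 fibroblast genes were required. Its comparison levels of 17.3, 41.9 and 71.3 CPM stood in the same order as the summed satellite cell markers there, 207, 290 and 582 CPM. Among 19 retinoid genes 4 were higher (21.1%), *Rxrg*, *Rdh10* and *Rarb* among them. *Aldh1a2*, an enzyme that makes retinoic acid, was lower, a share of 5.26% that is near the 5.32% of all genes.

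Of 71 transcription factors of embryonic patterning 15 were higher (21.1%) and 19 lower (26.8%), beside 5.87% and 5.32% of all genes tested. *Tbx2*, a T-box repressor, was at 139, 136 and 158 CPM against 22.7, 13.5 and 29.2 CPM (log2 difference 2.60 ± 0.129 SE, edgeR adjusted p = 3.85e-05). *Gata2* was at 18.2, 25.0 and 28.0 CPM against 0.986, 4.05 and 2.96 CPM (3.47 ± 0.279, adjusted p = 2.10e-04). *Ebf2*, an early B-cell factor found in mesenchymal progenitors, was at 18.8, 17.7 and 22.6 CPM against 182, 226 and 113 CPM (-3.04 ± 0.231, adjusted p = 1.66e-04). The groups stood clearly apart for each. The T-box genes *Tbx3* and *Tbx5* and the factors *Foxl2*, *Gata6* and *Osr2* were also higher. *Ebf1*, *Ebf3*, *Six2*, *Eya1* and *Eya2* were lower, and *Eya1* and *Eya2* are known from muscle progenitors too, whose markers were higher in the comparison sums. Of 12 Hox genes tested, *Hoxa5* was higher (8.33%) and *Hoxd3*, *Hoxd4* and *Hoxd8* were lower (25%). Without library 2, 2 Hox genes were higher and 5 lower.

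Structural matrix genes differed in both directions. Of 30 collagen genes 9 were higher (30%) and 5 lower (16.7%), beside 5.87% and 5.32% of all genes tested. *Col13a1*, like *Col23a1* a transmembrane collagen, was at 53.0, 40.8 and 51.4 CPM against 7.69, 5.40 and 14.1 CPM (log2 difference 2.36 ± 0.201 SE, edgeR adjusted p = 2.92e-04). *Col8a1* was at 35.9, 23.6 and 84.3 CPM against 163, 139 and 404 CPM (-2.31 ± 0.0988, adjusted p = 2.78e-05), and in both groups library 3 was highest. The 3 main chains of collagen VI, *Col6a1*, *Col6a2* and *Col6a3*, were higher. Elastic fibre genes gave 4 higher and 4 lower of 20 (20% each), with *Mfap4* higher and *Emilin2* lower, and 2 higher without library 2. Without the block 0 were higher and 2 lower, and *Mfap4*, which overlapped between the groups, had an adjusted p of 0.646 in edgeR.

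Proteoglycan and matricellular genes were more often lower, 22 of 53 (41.5%) against 10 higher (18.9%), with a median of -0.40. Over all genes tested 5.32% were lower and 5.87% higher. *Cilp*, a cartilage intermediate layer protein, was at 20.1, 16.9 and 11.4 CPM against 162, 176 and 118 CPM (log2 difference -3.24 ± 0.109 SE, edgeR adjusted p = 1.53e-05). *Smoc2*, a calcium-binding matricellular protein, was at 85.4, 48.8 and 73.1 CPM against 533, 436 and 485 CPM (-2.84 ± 0.114, adjusted p = 2.30e-05). Both groups were tight and far apart. Higher members included *Ccn4*, *Egflam*, *Vcan*, *Bgn* and *Ogn*. Of 11 genes of hyaluronan turnover, *Itih5*, *Ugdh* and *Cd44* were lower (27.3%), and 6 were lower without library 3. Among proteases and inhibitors *Adamts14*, *Adamts9* and *Reck* were higher and *Pcolce2* was lower. In all 12 of 45 were higher (26.7%) and 7 lower (15.6%), and 7 were higher without library 2.

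Genes of adventitial and tendon fibroblasts were mostly lower. Of 34 universal and adventitial fibroblast genes 23 were lower (67.6%), *Pi16*, *Ly6c1*, *Cd248*, *Cd55* and *Dpp4* among them. *Adh1* was higher (2.94%), and the list's median was -1.23. Over all genes tested 5.32% were lower and 5.87% higher. The count of higher genes of this list was 3 without library 1, 0 without library 2 and 2 without library 3. Of 13 tendon and ligament genes 9 were lower (69.2%) with a median of -1.86. Among them was *Thbs4*, at 38.2, 85.6 and 44.6 CPM against 322, 161 and 335 CPM (log2 difference -2.48 ± 0.353 SE, edgeR adjusted p = 0.00356). Without the block 18 and 4 of these genes were lower, and without library 2 the counts were 17 and 8. The tendon list held *Chodl*, which is also a satellite cell marker, and 6 of its 9 lower genes (*Col11a1*, *Col12a1*, *Fmod*, *Prg4*, *Thbs4* and *Cilp2*) are also in the collagen or proteoglycan lists. Of 14 chondrogenic genes 6 were lower (42.9%), namely *Comp*, *Col11a1*, *Chad*, *Cytl1*, *Sox6* and *Trps1*. *Col9a3* was higher (7.14%), though no gene was higher without library 1.

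Contractile genes of smooth muscle gave 4 higher (22.2%) and 3 lower (16.7%) of 18, beside 5.87% and 5.32% of all genes tested. In this list 8 were higher without library 3 and 1 lower without library 2. *Mylk*, myosin light chain kinase, was at 357, 370 and 404 CPM against 86.7, 112 and 114 CPM (log2 difference 1.86 ± 0.0894 SE, edgeR adjusted p = 3.85e-05), and *Myl9* and *Myocd* also rose. *Acta2*, smooth muscle actin, was at 19.1, 29.5 and 52.3 CPM against 50.9, 17.6 and 78.2 CPM and overlapped (adjusted p = 0.133). *Des* was lower (-1.30) but not when 5 of the 7 fibroblast genes were required (-0.31, adjusted p = 0.662).

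Of 51 axon guidance genes 9 were higher (17.6%) and 8 lower (15.7%), beside 5.87% and 5.32% of all genes tested. *Robo2*, a receptor of SLIT proteins, was at 526, 510 and 578 CPM against 127, 142 and 200 CPM (log2 difference 1.78 ± 0.103 SE, edgeR adjusted p = 5.95e-05), and *Dcc*, a netrin receptor, rose by 3.48. *Tnfsf13b*, the B-cell survival factor BAFF, was at 90.8, 74.6 and 67.7 CPM against 8.28, 12.2 and 6.90 CPM (3.26 ± 0.159, adjusted p = 3.85e-05). *Ccl11*, the eosinophil chemokine eotaxin, was at 39.8, 6.98 and 31 CPM against 291, 176 and 227 CPM (-3.17 ± 0.251, adjusted p = 1.95e-04). The chemokine list gave 4 higher (12.1%) and 9 lower (27.3%) of 33, with 2 higher without library 1 and 5 lower without library 2. *Aqp1*, a water channel, was at 765, 541 and 664 CPM against 151, 132 and 205 CPM (2.00 ± 0.117, adjusted p = 6.11e-05). *Aqp1* was one of 4 higher genes (16%) among 25 channels and transporters, of which 7 were lower (28%). Laminins and integrins gave 6 higher and 6 lower of 27 (22.2% each), but 2 lower without library 1, 3 without library 3 and 1 with DESeq2. The integrin genes *Itga4* and *Itga8* and the laminin gene *Lamc3* were higher, and *Itga2* was lower.

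Dissociation and sorting can induce immediate-early genes. Of 25 such genes 3 were higher (12%), namely *Nr4a1*, *Nr4a2* and *Nr4a3*, and 6 lower (24%), beside 5.87% and 5.32% of all genes tested. Without library 2 the counts were 5 and 4. *Fosb* was at 2.79, 44.8 and 3.34 CPM in gate-positive and 5.72, 91.8 and 10.5 CPM in comparison cells, so library 2 stood apart in both groups (log2 difference -1.23). *Fosb* turned to 0.06 (adjusted p = 0.984) when 5 of the 7 fibroblast genes were required. Of 12 Notch genes *Notch3*, *Dlk1* and *Jag1* were lower (25%). *Dlk1* and *Jag1* overlapped between the groups and lost their calls without the block (edgeR adjusted p = 0.158 and 0.145). In library 2 *Jag1* was at 11 CPM in gate-positive and 10.8 CPM in comparison cells. *Notch3* turned to 0.07 (adjusted p = 0.98) when 5 of the 7 fibroblast genes were required. Its comparison levels of 14.4, 33.8 and 45.7 CPM also stood in the order of the satellite cell markers, and their part in the *Notch3*, *Fgfr4* and *Des* values was not tested. Only 2 genes of the G2 and M phases had enough counts to be tested, and neither passed.

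Without the block fewer members of most lists were called, 10 higher and 12 lower for the patterning factors, 5 and 12 for the proteoglycans, 4 and 2 for the collagens, 3 and 3 for the proteases, 2 and 4 for the BMP genes and 1 and 5 for the chemokines.

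**Figure D4:**
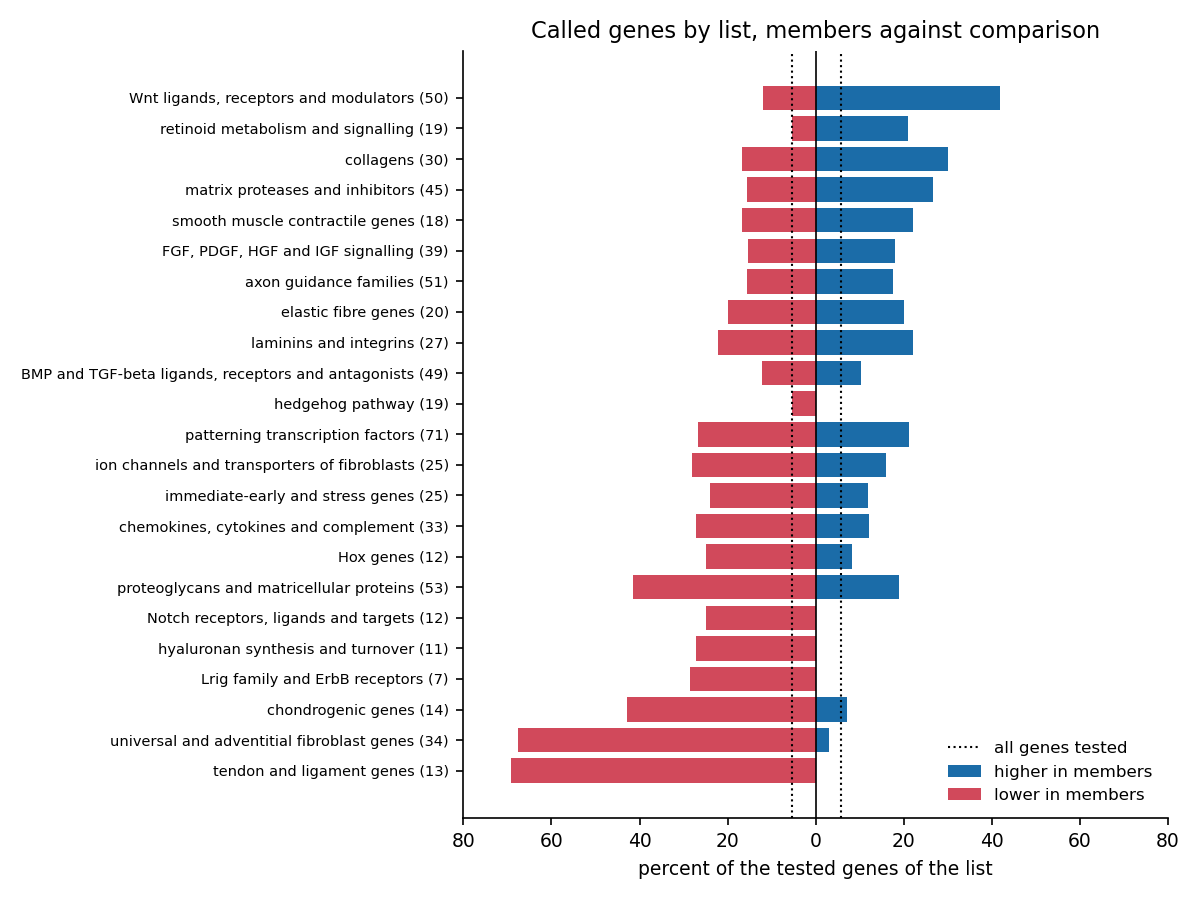
Percent of the tested genes of each list (y axis, with the number tested in parentheses) called higher (right, blue) or lower (left, red) in gate-positive cells (members). Dotted lines mark the shares over all genes tested, 5.87% and 5.32%; the Wnt list extends furthest to the right (21 of 50), and the tendon (9 of 13) and adventitial (23 of 34) lists furthest to the left.

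*Lrig1*, whose promoter drives the Cre, was found in a minority of the gate-positive cells. A *Lrig1* UMI was present in 29.7% of them in library 1 (95% Wilson interval 27.3 to 32.3), 34.5% in library 2 (29.4 to 40.0) and 34.7% in library 3 (32.1 to 37.5). In comparison cells the shares were 19.8%, 32.4% and 27.2%. The difference was 6.57 ± 3.99 percentage points (SD, n = 3) and positive in all 3 libraries, with a two-sided exact sign-flip permutation p of 0.25, the smallest 3 libraries allow. Cells with at least 5000 UMIs, 1083, 290 and 1002 gate-positive and 361, 62 and 276 comparison cells, were also thinned to 5000. Their means were 17.7% ± 2.26 and 17.3% ± 4.61, and the difference of 0.4 ± 2.86 points had no constant sign (exact permutation p = 1). In level, gate-positive cells had 37.6, 47.2 and 52.4 CPM of *Lrig1* against 28.2, 47.3 and 54.2 CPM. Without thinning, a *Lrig1* UMI was present in 38.6%, 56.6% and 52.9% of all kept cells and in 0.917%, 6.45% and 3.23% of macrophages. Of 7 genes of the LRIG family and the ErbB receptors that LRIG1 is known to restrain, *Egfr* and *Lrig3* were lower and none higher. That is 28.6% lower, beside 5.32% of all genes tested. *Egfr* was lower in gate-positive cells, at 179, 180 and 178 CPM against 383, 404 and 316 CPM (log2 difference -1.05 ± 0.0947 SE, edgeR adjusted p = 3.92e-04).

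Within the gate-positive cells, those with a *Lrig1* UMI were compared with those without, 383, 106 and 417 cells against 905, 201 and 784. Of 13239 genes 1 was higher (0.00755%) and 1 lower (0.00755%). Before adjustment 738 of the 13239 had an edgeR p below 0.05, a count that includes genes expected to pass without any difference. *Ptn*, the growth factor pleiotrophin, was lower at 310, 313 and 286 CPM against 530, 596 and 470 CPM (log2 difference -0.81 ± 0.0622 SE, edgeR adjusted p = 0.00619), without overlap. *Lpl*, lipoprotein lipase, was higher at 29.9, 27.0 and 66.1 CPM against 13.2, 12.3 and 27.0 CPM (1.22 ± 0.112, adjusted p = 0.0141), with the lowest value of the former equal to the highest of the latter, and its adjusted p was 0.0504 in sums matched for depth. *Lpl* is named although it fell outside the rule for named genes. Without the block 0 genes were called by edgeR (232 at an unadjusted p below 0.05), and DESeq2 called 3 in each direction. The counts depended on single libraries, with 90 higher and 41 lower without library 1, 23 and 17 without library 2, and 0 and 5 without library 3. Cells with a *Lrig1* UMI were deeper, with medians of 12972, 12874 and 11487 UMIs against 10163, 10793 and 7943.

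Whether *Wnt16* marks cells apart from *Hhip* was not tested. Cells with at least 2 *Wnt16* UMIs and no *Hhip* numbered 13, 4 and 10, under the minimum of 20 cells set here for a sum, beside 534, 126 and 490 with at least 2 *Hhip* UMIs and no *Wnt16*. After these counts were seen, 2 other splits were made. Gate-positive cells with at least 2 *Hhip* UMIs (931, 203 and 780) were set against those with none (258, 71 and 292). The former were divided into those with a *Wnt16* UMI (397, 77 and 290) and those without. Cells with no *Hhip* UMI passed the gate through the other gate genes, and 238, 65 and 273 of them held *Col23a1* alone. The first split thus sets *Hhip* cells mainly against cells with *Col23a1* only.

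*Hhip*-positive cells differed from the *Hhip*-negative cells in 498 higher (4.05%) and 486 lower (3.96%) of 12284 genes. The counts were 124 and 130 without the block, and 299 lower without library 3. *Nrcam* was at 75.2, 57.7 and 64.7 CPM against 2.71, 1.26 and 8.63 CPM (log2 difference 3.73 ± 0.281 SE, edgeR adjusted p = 3.53e-05). *Pla2g5*, *D430041D05Rik*, the integrin gene *Itga4* and the cadherin gene *Cdh6* made up the other largest rises, at 3.02 to 3.63. *Cilp* was at 4.86, 8.63 and 6.37 CPM against 73.1, 51.8 and 24.9 CPM (-2.99 ± 0.312, adjusted p = 1.78e-04). Both *Nrcam* and *Cilp* also differed along the gate UMIs of all fibroblasts. From 2 to over 40 gate UMIs *Nrcam* went from 2.94, 0 and 8.85 CPM to 146.5, 177 and 92.7 CPM. Over the same range *Cilp* went from 104.9, 22.7 and 21 CPM to 0 in all 3 libraries. The part of the total gate count in the *Hhip* split was not tested. *Ifi207*, *Fndc5* and *Phex* fell without overlap (-3.14, -3.11 and -2.90), whereas *Epyc* (-3.15) overlapped between libraries. *Ifi207* and *Epyc* lost their calls without the block (edgeR adjusted p = 0.164 and 0.208).

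Of 47 Wnt genes 16 were higher (34%) and 6 lower (12.8%) in *Hhip*-positive cells, beside 4.05% and 3.96% of all genes tested. The counts were 12 and 3 without library 3 and 10 and 2 without the block. *Wif1* was at 301, 367 and 614 CPM in *Hhip*-positive and 108, 163 and 97.4 CPM in *Hhip*-negative cells (log2 difference 1.80 ± 0.22 SE, edgeR adjusted p = 4.88e-04). *Axin2* was at 109, 88.3 and 84.9 CPM against 46.4, 50.5 and 45.2 CPM (1.00 ± 0.111, adjusted p = 2.59e-04). *Lef1*, a partner of beta-catenin, was low but higher, at 4.18, 5.89 and 3.71 CPM against 0.338, 0 and 0.691 CPM (3.13 ± 0.621, adjusted p = 0.00986). None of these genes overlapped, though the *Hhip*-negative values of *Lef1* rest on very few UMIs. *Gas1* and *Scube1* were the called hedgehog genes of 18 tested, and both were lower (11.1%). Of 31 adventitial genes 13 were lower (41.9%), 1 without the block, and *Igfbp6* was higher (3.23%), a call lost without library 3. *Pax7*, a satellite cell marker, was higher here (4.96, 12.2 and 9.55 against 2.03, 0 and 3.45 CPM, edgeR adjusted p = 0.0441). In the comparison with gate-negative fibroblasts it was instead in excess among the comparison cells. *Chodl*, also a satellite cell marker, and the muscle gene *Des* were called lower here. The satellite cell markers were not summed for this split.

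Among *Hhip*-positive cells, those with *Wnt16* had less *Prg4* and more *Bmp2*. Of 12575 genes 443 were higher (3.52%) and 559 lower (4.45%). The counts were 106 and 139 without the block and 278 and 369 without library 1. Both genes also differed along the gate UMIs of all fibroblasts. From 0 to over 40 gate UMIs *Prg4* went from 1231, 3163 and 310 CPM to 32.9, 250 and 5.29 CPM. *Bmp2* went from 78.5, 44.6 and 69.3 CPM to 220, 258 and 204 CPM. The part of the total gate count in this split was not tested. *Prg4*, which encodes the joint lubricant lubricin, was at 21.4, 7.40 and 8.60 CPM with *Wnt16* and 494, 595 and 139 CPM without (log2 difference -4.68 ± 0.197 SE, edgeR adjusted p = 2.06e-07). *Agt*, angiotensinogen, was at 1.16, 12.7 and 0.359 CPM against 223, 83.6 and 64.2 CPM (-5.95 ± 0.449, adjusted p = 8.86e-06). Every library showed the same direction, which was a condition for naming the largest changes, and no groups overlapped. The other largest falls were those of *Ppp1r1b* (-5.90), *Chil1*, a chitinase-like protein (-4.35), and *Ptx3*, a pentraxin of innate immunity (-3.74). *Chil1* and *Ptx3* lost their calls without the block (edgeR adjusted p = 0.0605 and 0.0643), and *Ptx3* also with DESeq2.

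*Tmem178* showed the largest rise, at 33.7, 39.1 and 19.0 CPM with *Wnt16* and 1.17, 0 and 0.842 CPM without (log2 difference 4.97 ± 0.34 SE, edgeR adjusted p = 7.07e-06). Its values without *Wnt16* rest on few UMIs, and so does the size of this difference. *Gm30605*, *Nrcam*, *St8sia6* (a sialyltransferase) and *Rflna* followed at 2.91, 2.37, 2.30 and 2.23, and *Rflna* lost its call without the block (edgeR adjusted p = 0.184). *Bmp2* was at 329, 313 and 337 CPM against 135, 129 and 115 CPM (1.38 ± 0.0853, adjusted p = 3.45e-06), values that were tight in both groups. *Sox9*, the master factor of cartilage, was at 6.51, 19.0 and 17.6 CPM against 95.7, 66.1 and 49.5 CPM (-2.53 ± 0.325, adjusted p = 3.22e-04). Of 49 Wnt genes 15 were higher (30.6%) and 8 lower (16.3%), beside 3.52% and 4.45% of all genes tested. *Rspo3* was among the lower genes, at 32.8, 34.9 and 42.3 CPM against 61.6, 44.3 and 70.3 CPM (-0.75 ± 0.127, adjusted p = 0.00239). *Gas1*, *Cdon* and *Boc* were lower, 3 of 18 hedgehog genes (16.7%). Of 27 collagen genes 11 were higher (40.7%) and 4 lower (14.8%), and of 50 proteoglycan and matricellular genes 6 were higher (12%) and 18 lower (36%). Without the block the Wnt, collagen and proteoglycan lists gave 7, 2 and 1 higher and 5, 2 and 9 lower. All comparisons reported here, the *Lrig1* split included, share cells, so their values stand side by side and are not independent of each other.

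**Figure D5:**
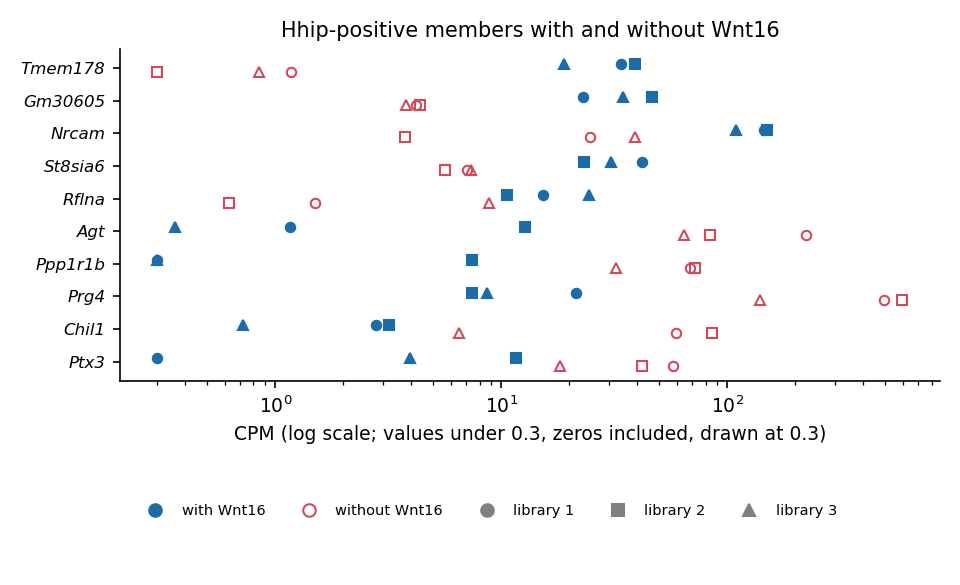
Level (x axis, CPM on a log scale) of the 5 genes with the largest rises and the 5 with the largest falls (y axis) in *Hhip*-positive gate-positive cells with a *Wnt16* UMI (filled) and without (open), with one symbol per library. The symbols of the 2 groups do not overlap in value for any gene, and 0 values are drawn at 0.3.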

How the data were processed

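Single-cell RNA was measured in 3 libraries by 10x 3′ sequencing. The authors aligned reads to GRCm39 with Cell Ranger 8.0.1 and deposited UMI counts per gene and called barcode, as whole numbers without normalization, so free RNA and doublets remain in them.

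From these counts, kept barcodes had 500 to 8000 genes, 1000 to 40000 UMIs and a mitochondrial share of 8% or less, and did not hold UMIs of all 4 of *Krt5*, *Ltf*, *Scgb3a1* and *Dcn* (1707, 386 and 6267 removed). Group sums within each library entered the quasi-likelihood F test of edgeR 4.0.16 (under R 4.3.3), after filterByExpr and TMM scaling, with the library as a block and a Benjamini-Hochberg threshold of 0.05. DESeq2 1.42.0 was an alternative. Sums held 740466 to 14311705 UMIs in the main comparison. The 2 sums from any library share one pool of larynges, and their deviations from the group means correlated by 0.284, 0.319 and 0.497. Other cell types were assigned outside the fibroblast rule by UMIs of at least 3 markers of exactly 1 class. SE is the log2 difference divided by the square root of F. The scripts were tested on simulated data.

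Members, markers and the 24 gene lists were chosen with earlier results of these data known. Named genes are the 12 largest rises and falls (5 in other comparisons) among called genes with a mean of at least 10 CPM, one direction in all libraries and the same call in depth-matched sums, up to 4 called genes per list with at least 5 CPM, and all tested hedgehog genes. *Axin2*, *Wif1*, *Acta2*, *Pax7*, other called list members and the list genes of the *Hhip* and *Wnt16* splits were named after their values were seen. Some called genes of the lists are counted but not reported here by name.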

Additional observations from a re-analysis of the deposited data

Results flagged for a closer look

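The barcodes removed as mixed, those with UMIs of all of *Krt5*, *Ltf*, *Scgb3a1* and *Dcn*, also held UMIs of the gate genes, a signal in data that no comparison used. At least 2 UMIs of *Hhip*, *Wnt16* and *Col23a1* were present in 12.1% of the mixed barcodes of library 1 (206 of 1707) and in 11.8% of those of library 3 (737 of 6267). In macrophages, where these genes should be absent, 0 of 109 and 0 of 31 cells held 2, which allows shares of up to 2.75% and 9.68%. In library 2 the share of 9.07% (35 of 386) lay under the limit of 9.68%. Mixed barcodes were deeper than macrophages, with medians of 17557 and 6258 UMIs against 10038 and 3544 in libraries 1 and 3, and the part of depth in these shares was not tested. Other classes held such barcodes as well, at 14.3%, 0% and 12.5% of perineurial barcodes, 5.51%, 5% and 14.8% of endothelial barcodes (21, 1 and 4 cells), 7.18%, 6.41% and 8.99% of satellite cells, and 8.75%, 5.95% and 5.32% of the barcodes with markers of no class or of more than 1 (660, 317 and 898 cells, at medians of 12633, 17360 and 14315 UMIs) in libraries 1, 2 and 3. The rule for mixed barcodes requires a UMI of *Dcn*, itself a fibroblast gene.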

How the results depend on the processing

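Of 1581 values of the 114 genes named in the comparison with gate-negative fibroblasts, 1524 kept their direction and their side of the threshold, 38 lost their call (18 without the replicate block), 6 gained one and 13 changed sign. Counts of higher and lower genes there were 350 and 283 without the block and 1261 and 1092 without the filter on low counts. For *Lrig1* they were 0 and 0 without the block, 3 and 3 with DESeq2, 128 and 151 without the filter, and 2 and 4 in depth-matched sums, with 3 lower after thinning to 5000 UMIs. Leaving out 1 library gave 0 to 90 higher and 5 to 41 lower. For *Hhip* the counts were 124 and 130 without the block, 280 and 291 with DESeq2, 241 and 282 after thinning, and 802 higher without the filter. Leaving out 1 library gave 333 to 545 higher and 299 to 578 lower. For *Wnt16* they were 106 and 139 without the block, 217 and 261 with DESeq2, 243 and 267 after thinning, and 853 lower without the filter. Leaving out 1 library gave 278 to 414 higher and 369 to 539 lower. The mean share of gate-positive cells, 69.8%, was 64.3% with a gate of 3 UMIs, 78.8% with 1 and 61.5% after thinning. The causes were not tested, apart from the number of genes tested without the filter and of cells and libraries left.

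The sign changes were those of *Gli2* (-0.00 without the block, -0.09 to 0.16 without 1 library, -0.01 without the highest doublet scores), *Ptch1* (-0.30 to 0.07 without 1 library, 0.09 without barcodes bearing other markers), *Scube3* (-0.12 to 0.12 without 1 library), *Gpr161* (-0.03 depth-matched, -0.05 with 5 of 7 fibroblast genes), *Disp1* (0.17 after thinning) and *Fosb* (0.15 without other markers). With 5 of 7 fibroblast genes *Fgfr4*, *Notch3* and *Fosb* came to 0.08, 0.07 and 0.06. The test of *Wnt16* without *Hhip* was not run, with 13, 4 and 10 cells. Depth-matched sums took the smaller number of cells in each UMI bin from both groups. The comparison cells of library 2, 68 in number, limit the precision of its sums. The alternatives for *Hhip* and *Wnt16* were chosen after seeing the data.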
